A study of Mus musculus with 40 samples.

Results

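Aminoacyl-tRNA synthetases are the enzymes that load each transfer RNA (tRNA) with its amino acid. Their transcripts were measured by mRNA sequencing in whole mouse EDL (extensor digitorum longus), a hindlimb muscle made mainly of fast fibres. The genes were taken from the count table by symbol: 1 letter followed by "ars", with or without a final 1 or 2, plus Eprs, Farsa, Farsb and Tarsl2. All 37 genes that matched reached 1 CPM (a count scaled to library size) in 5 or more of 40 libraries, out of 13543 genes that did so and 22844 genes in the table. Of these, 21 encode cytosolic enzymes, and 16, whose symbols end in 2, encode enzymes made for mitochondria. Gars and Kars each encode both forms from 1 gene and were counted with the cytosolic genes, as was Tarsl2, a cytosolic threonine enzyme beside Tars whose symbol also ends in 2.

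There were 8 groups of 5 mice with 1 library per mouse. Mice labelled TSCmKO carry a muscle-specific deletion of Tsc1, whose product restrains the kinase complex mTORC1. Controls (CON) were Tsc1fl/fl littermates with no Cre recombinase, so that both genotypes carried the floxed allele, and the strain label Tsc1tm1Djk/J was common to all 40 libraries. Mice of each genotype were 3 or 9 months old (3m or 9m in the group names) and were injected intraperitoneally with vehicle or with rapamycin (RM), an mTORC1 inhibitor, for 3 days. The labels give 4 mg of rapamycin per kg, but a figure legend of the study names a higher daily amount for a rapamycin course of 3 days, so the amount given is uncertain. The promoter that drives Cre is not given in the sources used here. Whole muscle also holds cells that keep Tsc1, and the insert sizes on the labels ran from 175 to 239 nt at 3 months and from 223 to 308 nt at 9 months, so that age and library preparation cannot be told apart.

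Cells keep separate synthetases for the cytosol and for mitochondria, where tRNAs of the mitochondrial genome are charged. In animals, part of the cytosolic enzymes are held in the multi-synthetase complex together with the scaffold proteins encoded by Aimp1, Aimp2 and Eef1e1, whereas the others act outside it. Genes of several cytosolic synthetases are known targets of the transcription factor ATF4, whose translation rises when amino acids run short or when mTORC1 is active, and ATF4 binds an element known as the CARE (C/EBP-ATF response element).

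Promoter sequences were searched for that element because the cytosolic genes moved in opposite directions in the comparisons reported here. RefSeq promoters of build GRCm38.p6, from 250 bases before to 50 bases after a start site, were matched for 27 of the 37 genes (14 cytosolic and 13 mitochondrial). The letters TGATGNAA were sought on both strands. They occurred in the promoters of 5 of 14 cytosolic genes, Aars, Gars, Iars, Tars and Yars, and of 0 of 13 mitochondrial genes. Among all promoters of the same length in the table, 3.97% held the letters, and 4.51% of all genes had a promoter with them. A stretch from each is given 5′ to 3′ on the strand of its gene with the match in capitals, which is the reverse complement of the letters sought in all but Yars and Asns.
Aars, chr8:111033840-111033869, plus strand: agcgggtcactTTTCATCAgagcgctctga
Gars, chr6:55037960-55037989, plus strand: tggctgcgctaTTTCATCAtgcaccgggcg
Tars, chr15:11399655-11399684, minus strand: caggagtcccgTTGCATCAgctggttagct
Iars, chr13:49682126-49682155, plus strand: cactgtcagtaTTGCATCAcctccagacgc
Yars, chr4:129189895-129189924, plus strand: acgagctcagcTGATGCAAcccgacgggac
For comparison, Asns, the asparagine synthetase gene and a known ATF4 target that makes an amino acid and charges no tRNA, held the letters as well. It was 1 of 5 other ATF4 targets searched, of which Chac1 and Trib3 held the letters too and Ddit3 and Sesn2 did not.
Asns, chr6:7693214-7693243, minus strand: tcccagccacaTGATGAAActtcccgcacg
These are matches of letters and not measured binding sites. Of the other motifs searched on both strands, the ETS letters CCGGAAGT stood in the promoters of Farsa, Mars and Rars2 (3.89% of all promoters), and the NRF1 letters GCGCNTGCGC in those of Farsb, Iars2, Kars and Tars (4.60% of all promoters).

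The deletion was seen in the knockout groups, since Tsc1 ran from 51.3 to 122 CPM in 9mCON and from 24.4 to 35.8 CPM in 9mTSCmKO, and from 84.1 to 134 CPM in 3mCON and from 26.5 to 30.7 CPM in 3mTSCmKO. Total counts ran from 8883870 to 35224669 per library. At 9 months, TSCmKO differed from CON in markers of cell types. Of 6 fast fibre markers 3 were lower in 9mTSCmKO and 0 higher (median log2 fold change -0.37), and their summed TPM (an abundance scaled to transcript length and library size) ran from 140051 to 153629 in 9mCON and from 105776 to 120348 in 9mTSCmKO, without overlap. In the same comparison 3 of 3 slow fibre markers were higher and 4 of 4 tendon and fibroblast markers were lower in 9mTSCmKO, with summed tendon and fibroblast TPM of 49.7 to 361 in 9mCON and 14.7 to 89.3 in 9mTSCmKO. There 1 of 3 endothelial, 1 of 3 adipocyte and 1 of 3 Schwann cell markers were lower, and of 4 macrophage markers 1 was higher and 1 lower. At 3 months 0 markers of any of these lists were called. The part of these cells in the values below was not tested. In bulk tissue, fewer cells of a type and less RNA per cell cannot be told apart.

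Per transcript length, the most abundant cytosolic synthetase transcript was Eprs, which encodes the joined glutamate and proline enzyme, with a mean of 167 TPM over all libraries (71.8 to 269). Kars (117 TPM), Gars (107 TPM), Nars (106 TPM), Tarsl2 (98.0 TPM) and Sars (92.7 TPM) followed, with library ranges that overlapped each other. Apart from Lars2, mitochondrial means ran from 43.3 TPM for Iars2 to 3.28 TPM for Pars2. Lars2, the mitochondrial leucine enzyme, was listed at 238 to 1411 TPM, with the highest mean of the 37 genes (641 TPM), and it held between 53.3% and 85.8% of the summed mitochondrial synthetase TPM of a library. Mice of 1 group differed widely, since Lars2 had 3266, 986, 952, 1265 and 1319 CPM in the 5 9mCON+RM libraries. Of its 31-base words, 0.486% also occurred in Gm15564, and 0 occurred in the 2 mitochondrial ribosomal RNAs, so the level of Lars2 is given as the files list it and is uncertain.

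**Figure D1:**
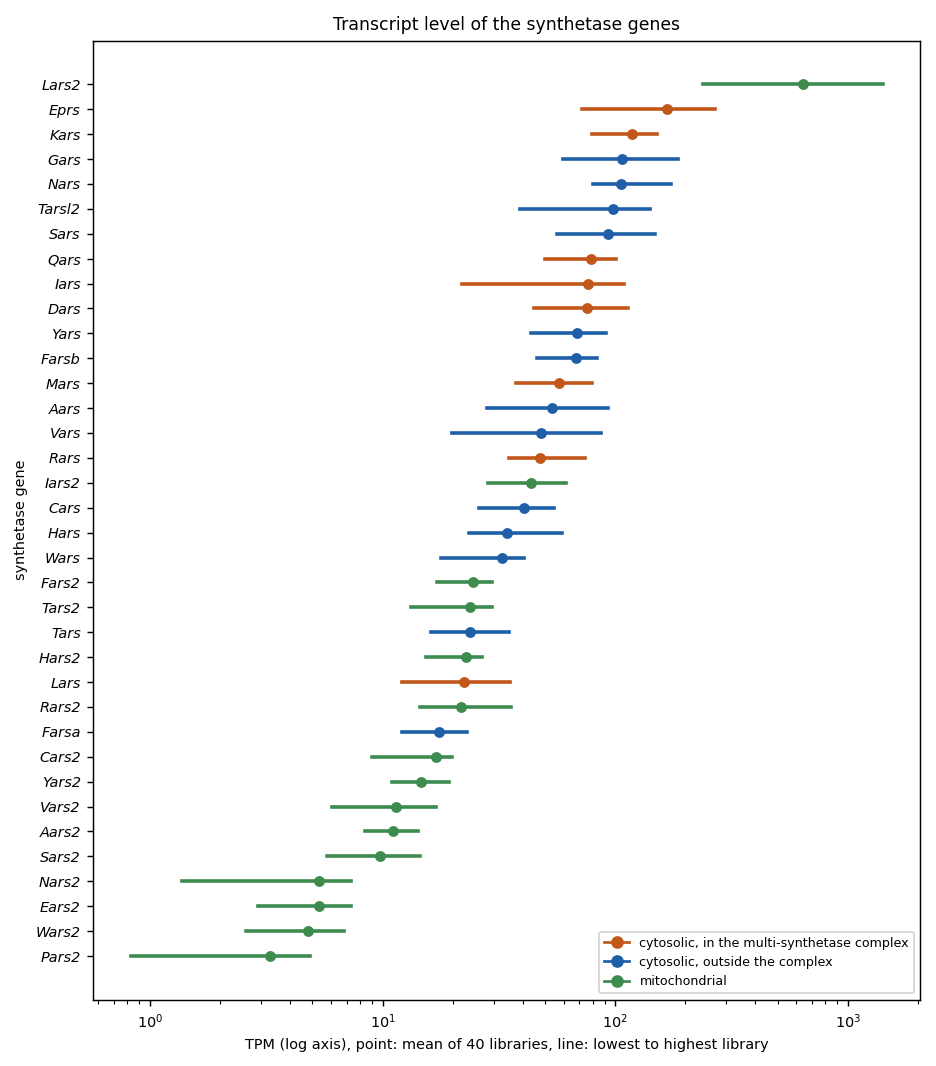
Transcript level of 36 synthetase genes in TPM on a log axis, ordered by mean; the point is the mean of 40 libraries, the line runs from the lowest to the highest library, and colour marks cytosolic genes inside and outside the multi-synthetase complex and mitochondrial genes. Lars2 stands at 238 to 1411 TPM, Eprs has the highest mean of the cytosolic genes at 167 TPM, and Pars2 has the lowest mean at 3.28 TPM.

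The first comparison asked how loss of Tsc1 in muscle changed these genes at 9 months, without rapamycin. Of 21 cytosolic genes, 7 were higher and 3 lower in 9mTSCmKO than in 9mCON, and of 16 mitochondrial genes 0 were higher and 5 lower, by edgeR's quasi-likelihood test with Benjamini-Hochberg adjustment over all 13543 genes. Of all genes tested, 19.1% were called higher and 18.9% lower, so that 7 of 37 and 8 of 37 synthetase genes stood near the background. The median log2 fold change was -0.21 for the mitochondrial genes, 0.28 for the 13 cytosolic genes outside the complex and -0.071 for its 8 members, beside -0.022 for all genes.

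The largest log2 rise was that of Nars, the cytosolic asparagine enzyme. Nars had 125, 144, 135, 123 and 129.5 CPM in the 5 9mCON libraries and 212, 215, 267, 216 and 207 CPM in the 5 9mTSCmKO libraries. The groups did not overlap, and the log2 fold change was 0.77 ± 0.10 (SE, adjusted p = 1.74e-07). Sars, the serine enzyme, had 94.4, 104, 111, 119.5 and 111 CPM in 9mCON and 142, 182, 198, 172 and 174 CPM in 9mTSCmKO, again with no overlap, a log2 fold change of 0.68 ± 0.09 (adjusted p = 5.65e-08). Gars, the glycine enzyme of both compartments, had 66.96, 88.4, 93.2, 81.4 and 90.3 CPM in 9mCON and 106, 142, 125, 142 and 140.1 CPM in 9mTSCmKO. Every knockout library was above every control library for Gars, and the groups differed by 0.64 ± 0.10 on the log2 scale (adjusted p = 4.8e-06). Hars, the histidine enzyme, had 32.6, 41.5, 35.9, 40.7 and 31.7 CPM in 9mCON and 48.9, 58.8, 62.8, 57.02 and 53.5 CPM in 9mTSCmKO, with no overlap and a log2 fold change of 0.62 ± 0.10 (adjusted p = 3.85e-06).

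The other 3 rises were less even. Aars, the alanine enzyme, which holds the element in its promoter, had 75.7, 77.1, 94.2, 93.7 and 117 CPM in 9mCON and 104, 175, 171, 146 and 124 CPM in 9mTSCmKO. The groups of Aars overlapped through 9mCON replicate 5 and 9mTSCmKO replicate 1, and the log2 fold change was 0.65 ± 0.13 (adjusted p = 9.81e-05). Tars, a cytosolic threonine enzyme, had 37.3, 53.7, 46.9, 54.5 and 51.4 CPM in 9mCON and 60.3, 67.9, 70.04, 53.9 and 56.4 CPM in 9mTSCmKO, a log2 fold change of 0.34 ± 0.11 (adjusted p = 0.0132) with an overlap between 53.9 and 54.5 CPM. Lars, the leucine enzyme and the only member of the complex that rose, had 28.3, 31.9, 36.8, 36.1 and 48.5 CPM in 9mCON and 29.96, 67.8, 55.6, 56.8 and 45.5 CPM in 9mTSCmKO. Its groups overlapped, and its call (log2 fold change 0.49 ± 0.17, adjusted p = 0.0174) was lost without 9mCON replicate 1 (adjusted p = 0.0565) or without 9mTSCmKO replicate 2 (adjusted p = 0.0831). The call of Tars was lost without 9mCON replicate 1 (adjusted p = 0.0585).

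Among the 3 cytosolic genes that fell was Tarsl2, the other cytosolic threonine enzyme, whose mean level over all libraries was 98.0 TPM against 23.8 TPM for Tars. Tarsl2 had 76.1, 131, 109, 124 and 148 CPM in 9mCON and 52.95, 98.7, 77.4, 75.3 and 73.6 CPM in 9mTSCmKO, a log2 fold change of -0.64 ± 0.13 (adjusted p = 0.000224). The groups of Tarsl2 overlapped only through 9mCON replicate 1, which was the low library of its group. Tars and Tarsl2, which load the same amino acid, were thus called in opposite directions. Of the 31-base words of Tarsl2, 2.91% also occurred in Tm2d3, which overlaps it on the same strand. The remaining falls were those of Iars, the isoleucine enzyme (75.1, 70.5, 101, 92.8 and 119 CPM in 9mCON and 44.1, 88.4, 74.7, 80.5 and 63.2 CPM in 9mTSCmKO, with an overlap, log2 fold change -0.39 ± 0.15, adjusted p = 0.0392), and Dars, the aspartate enzyme (70.5 to 94.9 and 51.5 to 73.9 CPM, -0.28 ± 0.11, adjusted p = 0.0359). Both are members of the complex, and both calls were weak. Dars was lost without 9mCON replicate 2, 9mCON replicate 3 or 9mTSCmKO replicate 1 (adjusted p = 0.0687 to 0.162) and Iars without any of 6 of the 10 libraries compared (adjusted p = 0.053 to 0.213). With limma on log2(TPM + 1), neither Dars (adjusted p = 0.152) nor Iars (adjusted p = 0.143) was called.

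The 5 mitochondrial genes that fell load asparagine, tryptophan, phenylalanine, valine and threonine. Nars2 had 7.204, 8.98, 8.93, 10.7 and 10.6 CPM in 9mCON and 2.81, 7.71, 8.099, 7.04 and 6.61 CPM in 9mTSCmKO. Replicate 1 of 9mTSCmKO was far below the others for Nars2, and the log2 fold change of -0.53 ± 0.17 (adjusted p = 0.0122) lost its call without that library (adjusted p = 0.0526) and with limma on log2(TPM + 1) (adjusted p = 0.0519). Wars2 had 5.26, 8.905, 8.53, 8.08 and 6.197 CPM in 9mCON and 5.93, 5.65, 4.86, 4.79 and 4.94 CPM in 9mTSCmKO, a log2 fold change of -0.49 ± 0.14 (adjusted p = 0.00474). Fars2 had 22.1, 33.6, 22.4, 25.3 and 23.5 CPM in 9mCON and 14.1, 19.2, 20.4, 18.5 and 19.1 CPM in 9mTSCmKO. All knockout libraries of Fars2 lay below all control libraries, with a log2 fold change of -0.47 ± 0.13 (adjusted p = 0.00272). Vars2 had 13.1, 15.1, 17.1, 14.8 and 15.2 CPM in 9mCON and 13.2, 12.2, 12.6, 10.9 and 8.05 CPM in 9mTSCmKO, and Tars2 had 23.9, 26.4, 26.1, 24.02 and 23.5 CPM in 9mCON and 16.9, 22.6, 22.1, 17.3 and 19.6 CPM in 9mTSCmKO. Tars2 showed no overlap between the groups and Vars2 overlapped at 13.1 and 13.2 CPM, with log2 fold changes of -0.33 ± 0.09 (adjusted p = 0.00506) and -0.41 ± 0.11 (adjusted p = 0.00266). When the fit used the 10 libraries of this comparison alone, none of the 5 was called (adjusted p from 0.0514 for Fars2 to 0.163 for Nars2). That fit called 6 of the 37 genes, 5 higher and 1 lower, in place of 15, and Tars, Lars, Dars and Iars were not called in it either.

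Partners for the same amino acid could be compared in 13 pairs of 1 cytosolic and 1 mitochondrial gene. In 9 of 13 pairs the cytosolic log2 fold change was above the mitochondrial one, with a median difference of 0.58 on the log2 scale. For asparagine and threonine the partners were called in opposite directions. The ratio of Nars to Nars2 in TPM, as a geometric mean of 5 libraries, was 15.8 in 9mCON and 42.2 in 9mTSCmKO. On the log2 scale its libraries ran from 3.60 to 4.35 in 9mCON and from 4.87 to 6.75 in 9mTSCmKO. Nars2 was low in replicate 1 of 9mTSCmKO, as given above. The ratio of Hars to Hars2 was 1.46 and 2.49. Summed over genes, mitochondrial TPM without Lars2 was 230 ± 17.1 (SD, n = 5) in 9mCON and 215 ± 18.3 in 9mTSCmKO, and cytosolic TPM was 1202 ± 199 and 1408 ± 205. The ratio of both sums was 5.19 ± 0.548 in 9mCON and 6.51 ± 0.484 in 9mTSCmKO, and with Lars2 included it was 1.33 ± 0.510 and 1.54 ± 0.394. The choice to leave out Lars2 was made after its level was seen.

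**Figure D2:**
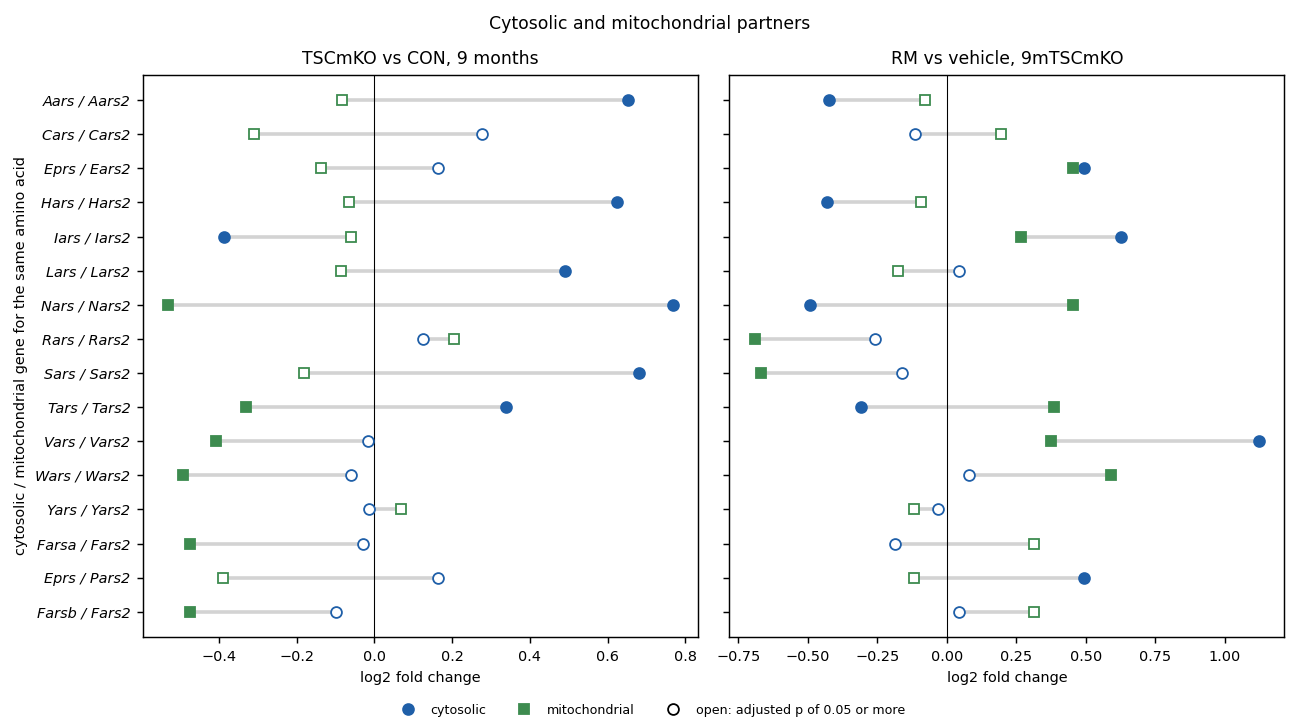
Log2 fold change of cytosolic (blue circles) and mitochondrial (green squares) genes for the same amino acid, in 9mTSCmKO against 9mCON (left) and with rapamycin in 9mTSCmKO (right); filled symbols passed an adjusted p of 0.05, grey lines join partners, and Eprs and Fars2 appear in 2 rows each. In the left panel Nars stands at 0.77 and Nars2 at -0.53; in the right panel they stand at -0.49 and 0.45.

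The same question was asked at 3 months. In 3mTSCmKO, 6 cytosolic genes were higher and 2 lower than in 3mCON, and of the mitochondrial genes 0 were higher and 1 lower. Of all genes, 11.4% were called higher and 8.32% lower, beside 6 of 37 and 3 of 37 synthetase genes. Upper-quartile scaling changed this split to 5 higher and 7 lower. The median log2 fold change was 0.20 outside the complex, -0.15 for its members and -0.11 for the mitochondrial genes, beside -0.024 for all genes. In 12 of 13 pairs the cytosolic log2 fold change was above that of its mitochondrial partner. That count was not high in these comparisons alone. Between genotypes under rapamycin it was 10 of 13 at 9 months and 11 of 13 at 3 months. With rapamycin it was 11 of 13 in 9mCON, 7 of 13 in 9mTSCmKO, 4 of 13 in 3mTSCmKO and 5 of 13 in 3mCON. Between ages it was 2 of 13 in CON and 7 of 13 in TSCmKO.

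Sars and Gars again stood out. Sars had 96.6, 94.3, 78.7, 98.8 and 99.9 CPM in 3mCON and 156, 172, 142, 141 and 151 CPM in 3mTSCmKO, without overlap and with a log2 fold change of 0.70 ± 0.09 (adjusted p = 7.86e-08). Gars had 86.4, 89.9, 74.7, 96.4 and 102 CPM in 3mCON and 168, 158, 124, 119 and 132 CPM in 3mTSCmKO, also without overlap (0.64 ± 0.10, adjusted p = 1.11e-05). For Hars the values were 30.7, 29.7, 24.95, 31.2 and 33.03 CPM in 3mCON and 42.1, 42.1, 40.3, 34.8 and 43.8 CPM in 3mTSCmKO. No knockout library of Hars was as low as a control library, and the log2 fold change was 0.44 ± 0.10 (adjusted p = 0.00112). Aars had 94.01, 88.6, 77.8, 86.5 and 98.2 CPM in 3mCON and 129, 163, 114, 92.2 and 118 CPM in 3mTSCmKO, a log2 fold change of 0.47 ± 0.13 (adjusted p = 0.00709) that was no longer called without 3mTSCmKO replicate 2 (adjusted p = 0.0536). Tars had 45.97, 47.7, 39.2, 46.6 and 53.5 CPM in 3mCON and 70.6, 69.9, 56.2, 46.1 and 49.8 CPM in 3mTSCmKO (0.33 ± 0.11, adjusted p = 0.0286). Mars, the methionine enzyme, had 50.4, 52.7, 44.3, 52.2 and 58.1 CPM in 3mCON and 78.02, 77.1, 55.7, 52.3 and 61.5 CPM in 3mTSCmKO (0.33 ± 0.11, adjusted p = 0.0304). Tars and Mars completed the rises, and the groups of both overlapped. Each of the Tars and Mars calls was lost without any of 5 of the 10 libraries (adjusted p = 0.0509 to 0.121 for Tars and 0.0502 to 0.122 for Mars). With limma on log2(TPM + 1) the calls of Aars (adjusted p = 0.074), Tars (adjusted p = 0.138) and Mars (adjusted p = 0.096) were lost. Tars was also lost in a fit of the 10 libraries alone (adjusted p = 0.0584) and Mars with upper-quartile scaling (adjusted p = 0.0501). Mars overlaps Ddit3, an ATF4 target, on the opposite strand, and reads were counted by strand.

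Vars2, the mitochondrial valine enzyme, had 13.4, 14.5, 14.5, 14.8 and 13.1 CPM in 3mCON and 8.76, 8.75, 9.25, 9.598 and 11.2 CPM in 3mTSCmKO. Its groups did not overlap, with a log2 fold change of -0.56 ± 0.11 (adjusted p = 0.000152). Tarsl2 had 138, 172, 135, 142 and 143 CPM in 3mCON and 122, 103, 102, 89.96 and 98.9 CPM in 3mTSCmKO, without overlap and with a log2 fold change of -0.50 ± 0.13 (adjusted p = 0.00563). Kars, the lysine enzyme of both compartments, had 118, 117, 105, 115 and 115 CPM in 3mCON and 97.5, 113, 87.3, 82.4 and 90.7 CPM in 3mTSCmKO. The fall of Kars (-0.27 ± 0.10, adjusted p = 0.0367) was lost without any of 8 of the 10 libraries (adjusted p = 0.0526 to 0.105) and without the CPM filter (adjusted p = 0.118).

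The mice of both ages were separate animals, so that the calls could be counted together. Aars, Gars, Hars, Sars, Tars, Tarsl2 and Vars2 were called at both ages, each in the same direction, which is 46.7% of the 15 genes called at 9 months and 77.8% of the 9 called at 3 months. Over all genes tested, 1853 were called at both ages in the same direction, which is 36.1% of the 5133 called at 9 months and 69.2% of the 2676 called at 3 months. Nars was called at 9 months alone, and its genotype effect differed between ages by 0.52 ± 0.15 on the log2 scale (adjusted p = 0.0285). At 3 months Nars had 140.0, 138, 114, 133 and 145 CPM in 3mCON and 192, 174, 148, 139 and 141 CPM in 3mTSCmKO, where only replicates 1 to 3 of the knockout exceeded the controls. It was the only synthetase gene of 37 with such a difference, beside 3.01% of all genes called higher and 1.93% called lower in that test. Without 3mCON replicate 5, 3mTSCmKO replicate 3 or 5, 9mCON replicate 4 or 9mTSCmKO replicate 3, the Nars difference did not pass that test (adjusted p = 0.0547 to 0.0664), and 0 synthetase genes did. There were also 0 when the groups compared were fitted alone and 0 without the CPM filter, and limma on log2(TPM + 1) called 2. For the other 36 genes the interaction did not pass, with log2 values from -0.47 to 0.35.

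**Figure D3:**
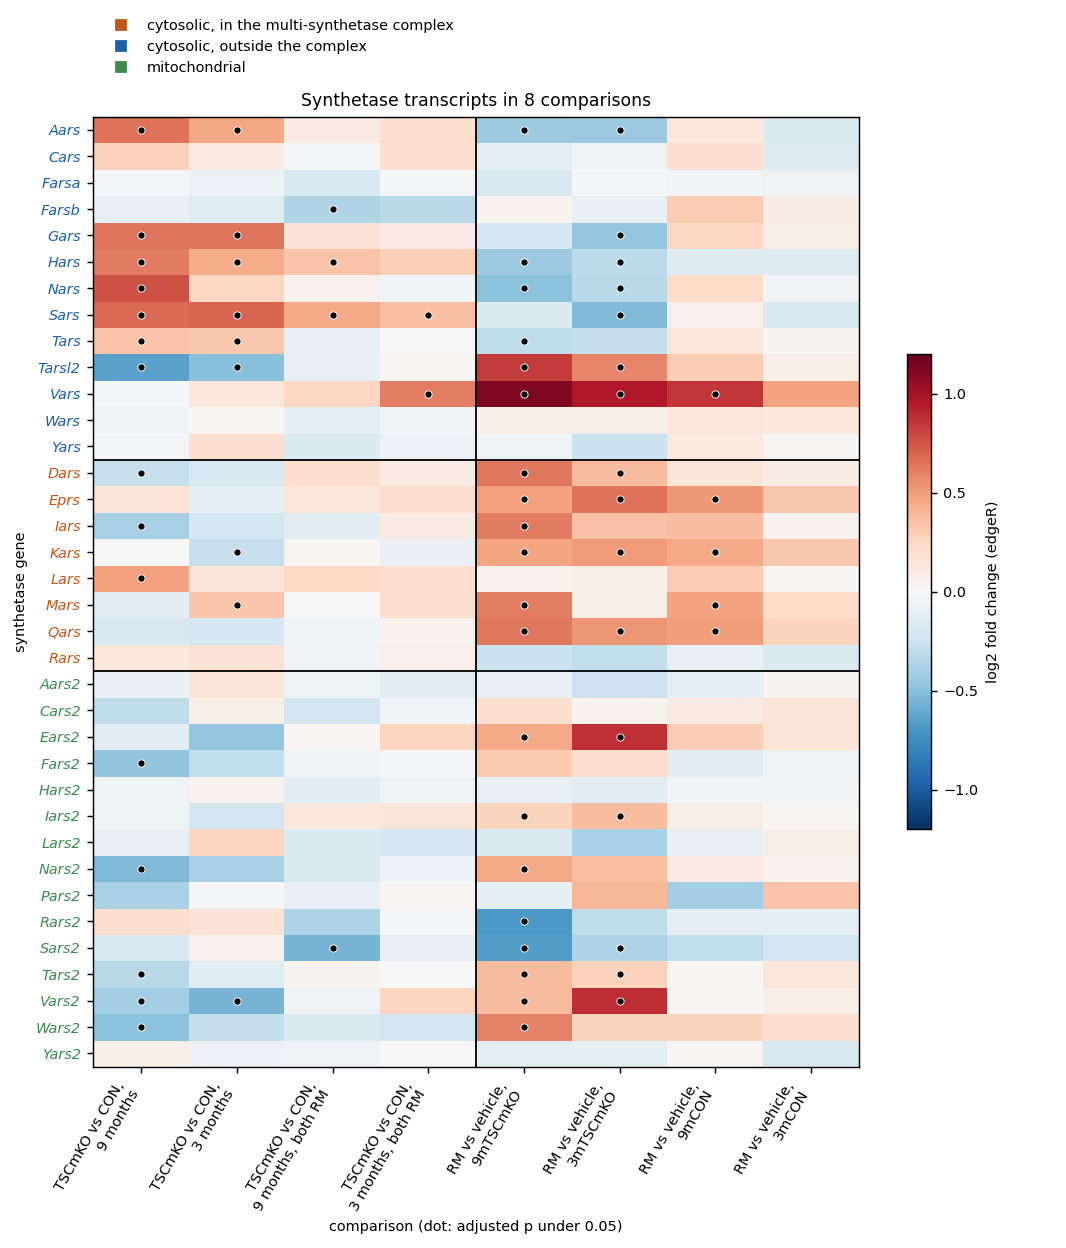
Log2 fold change of 36 synthetase genes (rows) in 8 comparisons (columns), red for higher and blue for lower; dots mark an adjusted p under 0.05, and lines part cytosolic genes outside the complex, its members and mitochondrial genes. Sars stands at 0.68 in the knockout at 9 months and 0.70 at 3 months, and Vars reaches 1.12 with rapamycin in 9mTSCmKO.

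The next comparison asked what 3 days of rapamycin did in knockout muscle at 9 months. Members of the complex were called higher alone, and the other cytosolic genes were called in both directions. In 9mTSCmKO+RM, 6 of 8 members of the complex were higher than in 9mTSCmKO and 0 lower, with a median log2 fold change of 0.55. Of the 13 cytosolic genes outside it, 2 were higher and 4 lower, with a median of -0.16. Of the 16 mitochondrial genes, 6 were higher and 2 lower, with a median of 0.066, beside -0.045 for all genes. Together 14 of 37 synthetase genes were higher and 6 of 37 lower, where 15.8% and 16.8% of all genes were. This comparison and the genotype comparison at 9 months share the 9mTSCmKO libraries, so their values are given side by side and not as support for each other. Markers of cell types moved as well: 3 of 6 fast fibre markers were higher and 1 lower with rapamycin (median 0.43, summed TPM of 123016 to 140751 with rapamycin against 105776 to 120348 with vehicle), the 1 satellite cell marker was higher (0.84), and 1 of 3 endothelial and 1 of 3 Schwann cell markers were lower. The slow fibre, tendon and fibroblast, macrophage, adipocyte and erythroid lists had 0 calls, and the part of these cells in the synthetase values was not tested.

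Vars, the cytosolic valine enzyme, showed the largest change of the 37 genes. Vars had 33.03, 47.7, 39.8, 36.5 and 40.9 CPM in 9mTSCmKO and 82.2, 91.6, 99.7, 77.3 and 80.4 CPM in 9mTSCmKO+RM. The groups lay far apart, with a log2 fold change of 1.12 ± 0.12 (adjusted p = 8.27e-09), whereas knockout and control did not differ detectably without rapamycin (-0.02 ± 0.12, adjusted p = 0.924). Tarsl2 had 52.95, 98.7, 77.4, 75.3 and 73.6 CPM in 9mTSCmKO and 131, 146, 149.8, 124 and 124 CPM in 9mTSCmKO+RM. It rose by 0.84 ± 0.13 on the log2 scale with no overlap (adjusted p = 7.26e-06), to a range that also held 3 of the 5 untreated control libraries. Vars and Tarsl2 were the only cytosolic genes outside the complex that rose.

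In the complex, Qars, the glutamine enzyme, had 47.4, 60.5, 61.4, 49.8 and 54.6 CPM in 9mTSCmKO and 94.2, 85.8, 83.7, 82.4 and 77.4 CPM in 9mTSCmKO+RM, a log2 fold change of 0.63 ± 0.10 (adjusted p = 8.2e-06). Dars had 51.5, 67.3, 73.9, 68.8 and 69.8 and 90.5, 116, 88.2, 116 and 101 CPM in the same groups, a log2 fold change of 0.63 ± 0.11 (adjusted p = 1.63e-05). Neither gene showed an overlap between vehicle and rapamycin. Mars had 33.6, 51.01, 48.9, 45.5 and 49.9 CPM in 9mTSCmKO and 79.3, 70.2, 68.8, 63.1 and 68.2 CPM in 9mTSCmKO+RM (0.61 ± 0.11, adjusted p = 5.62e-05). Kars had 99.3, 120.5, 123, 109 and 117 CPM in 9mTSCmKO and 183, 157, 147, 154 and 147 CPM in 9mTSCmKO+RM (0.47 ± 0.10, adjusted p = 0.000202). For Mars and Kars, too, every treated library lay above every vehicle library. Iars had 44.1, 88.4, 74.7, 80.5 and 63.2 CPM in 9mTSCmKO and 84.7, 118, 131, 104 and 103 CPM in 9mTSCmKO+RM, with an overlap and a log2 fold change of 0.63 ± 0.15 (adjusted p = 0.00139). Eprs had 319, 395, 279, 358 and 296 CPM in 9mTSCmKO and 341, 447, 525, 514 and 489 CPM in 9mTSCmKO+RM. The groups of Eprs overlapped, and its call (0.49 ± 0.17, adjusted p = 0.0205) was lost without 9mTSCmKO replicate 3, 9mTSCmKO replicate 5 or 9mTSCmKO+RM replicate 3 (adjusted p = 0.0548 to 0.0607). The 2 members that were not called were Lars (0.05 ± 0.16, adjusted p = 0.86) and Rars, the arginine enzyme (-0.26 ± 0.12, adjusted p = 0.0911).

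The 4 cytosolic genes that fell with rapamycin in 9mTSCmKO were Nars, Hars, Aars and Tars. Nars had 212, 215, 267, 216 and 207 CPM in 9mTSCmKO and 159, 165, 141, 179.6 and 149 CPM in 9mTSCmKO+RM, without overlap (-0.49 ± 0.10, adjusted p = 0.000313). Hars had 48.9, 58.8, 62.8, 57.02 and 53.5 CPM in 9mTSCmKO and 51.2, 39.6, 38.2, 41.7 and 37.6 CPM in 9mTSCmKO+RM (-0.43 ± 0.10, adjusted p = 0.000863). Only replicate 1 of the treated Hars libraries reached the range of the vehicle libraries. Aars had 104, 175, 171, 146 and 124 CPM in 9mTSCmKO and 90.2, 112, 119.8, 109 and 104 CPM in 9mTSCmKO+RM, a change of -0.43 ± 0.13 on the log2 scale (adjusted p = 0.00953). Tars had 53.9 to 70.04 CPM in 9mTSCmKO and 41.8 to 54.2 CPM in 9mTSCmKO+RM (-0.31 ± 0.11, adjusted p = 0.0277). The Tars call was lost without 9mTSCmKO replicate 3 (adjusted p = 0.0822) or 9mTSCmKO+RM replicate 1 (adjusted p = 0.085), and without the CPM filter (adjusted p = 0.0762). With limma on log2(TPM + 1), Aars (adjusted p = 0.246) and Tars (adjusted p = 0.0583) were not called. For Sars, with 165, 151, 155, 147 and 157 CPM in 9mTSCmKO+RM, and Gars, with 106, 116, 120.4, 121 and 102 CPM, the log2 fold changes of -0.16 ± 0.09 (adjusted p = 0.154) and -0.21 ± 0.10 (adjusted p = 0.112) did not pass the test.

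The 6 mitochondrial genes that were higher with rapamycin were Wars2, Nars2, Tars2, Vars2, Ears2 and Iars2. Wars2 had 8.84, 7.203, 8.54, 7.38 and 7.500 CPM in 9mTSCmKO+RM, above all 9mTSCmKO libraries, with a log2 fold change of 0.59 ± 0.14 (adjusted p = 0.00104). Nars2 had 8.998, 9.34, 9.299, 8.13 and 8.35 CPM in 9mTSCmKO+RM (0.45 ± 0.17, adjusted p = 0.0359), and its call was lost without any of 5 of the 10 libraries (adjusted p = 0.0523 to 0.154). Tars2 (0.38 ± 0.09, adjusted p = 0.00159) and Vars2 (0.38 ± 0.11, adjusted p = 0.00644) had 29.2, 27.2, 24.6, 21.6 and 25.9 CPM and 15.96, 16.02, 15.2, 12.3 and 14.1 CPM in 9mTSCmKO+RM, and both overlapped the vehicle libraries. Fars2 was not called (0.31 ± 0.13, adjusted p = 0.0519). Ears2, the mitochondrial glutamate enzyme, had 13.99, 6.001, 11.4, 5.89 and 6.56 CPM in 9mTSCmKO and 13.8, 11.5, 11.7, 9.72 and 13.4 CPM in 9mTSCmKO+RM (0.45 ± 0.17, adjusted p = 0.0386), with replicate 1 of the vehicle libraries above all treated ones and replicate 3 within their range. The Ears2 call was lost without any of 7 libraries (adjusted p = 0.052 to 0.154) and with insert size as a term (adjusted p = 0.0617). The fit with insert size also left out 9mTSCmKO+RM replicate 5, whose label gives none. For Iars2 the log2 fold change was 0.27 ± 0.09 (adjusted p = 0.0205), and it lost its call without any of 4 libraries (adjusted p = 0.0606 to 0.0983). With limma on log2(TPM + 1), Iars2 (adjusted p = 0.19) and Nars2 (adjusted p = 0.069) were not called.

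The 2 mitochondrial genes that fell were Rars2 and Sars2, which load arginine and serine. Rars2 had 29.9, 16.4, 27.8, 17.5 and 20.4 CPM in 9mTSCmKO and 19.1, 13.5, 11.9, 11.9 and 13.2 CPM in 9mTSCmKO+RM (-0.69 ± 0.17, adjusted p = 0.00185). Replicate 1 was the high library of Rars2 in both groups. Sars2 had 6.66, 12.7, 11.2, 9.87 and 11.4 CPM in 9mTSCmKO and 6.34, 5.94, 6.69, 5.51 and 8.11 CPM in 9mTSCmKO+RM. It differed by -0.67 ± 0.14 on the log2 scale (adjusted p = 0.000329), and the groups overlapped only through replicate 1 of 9mTSCmKO. Fitted on the 10 libraries of this comparison alone, 13 of the 37 genes were called, 9 higher and 4 lower, in place of 20, and Tars, Aars, Nars2, Iars2, Tars2, Ears2 and Vars2 were not among them.

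**Figure D4:**
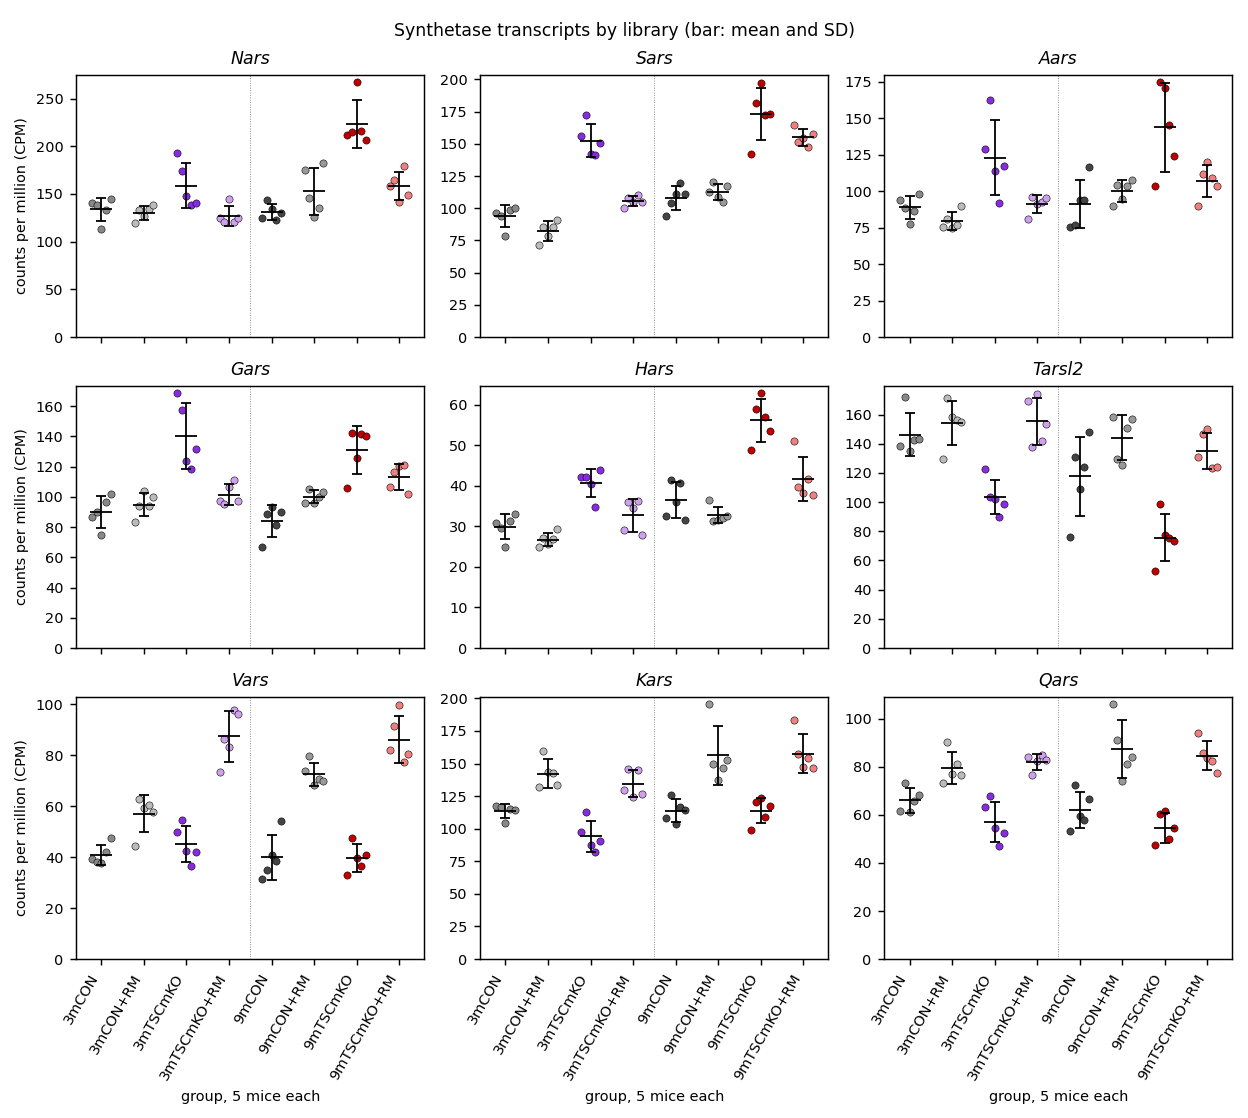
CPM of 9 synthetase genes in every library of the 8 groups; points are mice, and bars give the mean and SD of 5 libraries on axes that start at 0. Nars reaches 267 CPM in 9mTSCmKO, Tarsl2 is lowest there at 53.0 CPM, and Vars lies at or above 73.3 CPM in all libraries of both rapamycin-treated knockout groups.

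In 3-month knockout muscle, many of the same genes were called. Of the complex, 4 of 8 members were higher and 0 lower in 3mTSCmKO+RM than in 3mTSCmKO, with a median log2 fold change of 0.37. Of the 13 cytosolic genes outside it, 2 were higher and 5 lower (median -0.25), and of the 16 mitochondrial genes 4 were higher and 1 lower (median 0.20). The 10 of 37 higher and 6 of 37 lower stood beside 10.6% and 13% of all genes. The median of all genes was 0.0099. Of all calls in this comparison 44.9% were higher, and with upper-quartile scaling 55.7% were. Of the 6 fast fibre markers 3 were higher and 1 lower in 3mTSCmKO+RM (median 0.30, summed TPM of 134458 to 149861 against 119018 to 150636 with vehicle), and 1 of 4 macrophage and 1 of 4 tendon and fibroblast markers were higher. Their part in these values was not tested.

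Vars had 49.9, 54.5, 42.6, 36.5 and 41.9 CPM in 3mTSCmKO and 73.3, 86.5, 83.4, 97.7 and 96.1 CPM in 3mTSCmKO+RM, a log2 fold change of 0.96 ± 0.12 (adjusted p = 1.87e-07). Tarsl2 had 169, 138, 174, 142 and 154 CPM in 3mTSCmKO+RM (0.59 ± 0.13, adjusted p = 0.000995). For both genes all treated libraries lay above all vehicle libraries. In the complex, Eprs had 397, 393, 276, 219 and 281 CPM in 3mTSCmKO and 364, 508, 572, 556 and 458 CPM in 3mTSCmKO+RM (0.65 ± 0.17, adjusted p = 0.00327), Kars had 129.7, 146, 124, 145 and 127 CPM in 3mTSCmKO+RM (0.51 ± 0.10, adjusted p = 8.07e-05), and Qars had 63.3, 67.9, 54.7, 47.1 and 52.5 CPM in 3mTSCmKO and 84.2, 76.4, 82.5, 84.99 and 82.9 CPM in 3mTSCmKO+RM (0.53 ± 0.10, adjusted p = 0.000138). Kars and Qars showed no overlap, and Eprs overlapped only through replicate 1 of 3mTSCmKO+RM. Dars, with 63.3 to 79.5 and 83.6 to 99.5 CPM, rose by 0.38 ± 0.11 (adjusted p = 0.0067). Iars (0.35 ± 0.15, adjusted p = 0.0839) and Mars (0.07 ± 0.11, adjusted p = 0.692), which had been called at 9 months, were not called at 3 months.

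The 5 cytosolic genes that fell in 3mTSCmKO+RM were Sars, Gars, Aars, Nars and Hars. Sars had 100.2, 108, 105, 110.0 and 105 CPM there, all below the 3mTSCmKO libraries, with a log2 fold change of -0.53 ± 0.09 (adjusted p = 1.35e-05). Gars had 97.03, 95.4, 106, 111 and 97.3 CPM, also without overlap (-0.46 ± 0.10, adjusted p = 0.000761). These 2 genes, not called at 9 months, had the lowest adjusted p of the falls at 3 months. Aars had 80.9, 96.1, 90.97, 92.3 and 95.3 CPM (-0.43 ± 0.13, adjusted p = 0.011), and its call was lost without 3mTSCmKO replicate 2 (adjusted p = 0.0742). Nars had 124, 120.4, 145, 121 and 125 CPM (-0.32 ± 0.10, adjusted p = 0.02) and Hars had 29.02, 35.96, 34.6, 36.3 and 27.8 CPM (-0.31 ± 0.10, adjusted p = 0.0191). The Nars call was lost without 3mTSCmKO replicate 1, 3mTSCmKO replicate 2 or 3mTSCmKO+RM replicate 2 (adjusted p = 0.0503 to 0.125) and the Hars call without any of 4 libraries (adjusted p = 0.053 to 0.074). Limma on log2(TPM + 1) called neither Aars (adjusted p = 0.116) nor Nars (adjusted p = 0.0731).

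Vars2 showed the clearest mitochondrial change, with 17.3, 19.6, 17.8, 16.2 and 17.1 CPM in 3mTSCmKO+RM against 8.75 to 11.2 CPM in 3mTSCmKO. The log2 fold change was 0.88 ± 0.11 (adjusted p = 6.09e-08), close in size to that of its cytosolic partner Vars. Ears2 had 7.31, 5.29, 5.602, 5.89 and 6.298 CPM in 3mTSCmKO and 11.6, 10.1, 11.8, 12.3 and 10.02 CPM in 3mTSCmKO+RM (0.88 ± 0.17, adjusted p = 0.000182), and Iars2 had 71.6, 72.2, 66.97, 68.4 and 69.1 CPM in 3mTSCmKO and 98.01, 92.1, 89.8, 88.2 and 83.02 CPM in 3mTSCmKO+RM (0.37 ± 0.09, adjusted p = 0.0018). Neither overlapped between vehicle and rapamycin. Tars2 had 19.3, 23.3, 18.7, 21.4 and 21.4 CPM in 3mTSCmKO and 26.01, 25.7, 24.4, 25.1 and 24.5 CPM in 3mTSCmKO+RM, without overlap (0.27 ± 0.09, adjusted p = 0.0277). The Tars2 call was lost without any of 4 libraries (adjusted p = 0.0553 to 0.0715) and without the CPM filter (adjusted p = 0.0793). Sars2 had 8.37, 10.6, 9.51, 8.67 and 12.2 CPM in 3mTSCmKO and 8.299, 8.69, 5.99, 8.204 and 7.06 CPM in 3mTSCmKO+RM, with an overlap (-0.37 ± 0.14, adjusted p = 0.0479). Its call was lost without any of 6 libraries (adjusted p = 0.0575 to 0.178) and under 5 other settings, namely the replicate block (adjusted p = 0.06), insert size as a term (0.0663), no CPM filter (0.0871), limma on log2(TPM + 1) (0.0896) and upper-quartile scaling (0.0968).

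The mice of the 2 rapamycin comparisons in knockout muscle were separate. Of the genes called, 14 were common to both ages, Sars2 with its weak call at 3 months included, all in the same direction, which is 70.0% of the 20 called at 9 months and 87.5% of the 16 called at 3 months. Over all genes tested the same count was 1911, which is 43.3% of the 4410 called at 9 months and 59.8% of the 3196 called at 3 months. In both, Aars, Hars and Nars fell outside the complex, Dars, Eprs, Kars and Qars rose in it, and Vars and Tarsl2 rose.

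**Figure D5:**
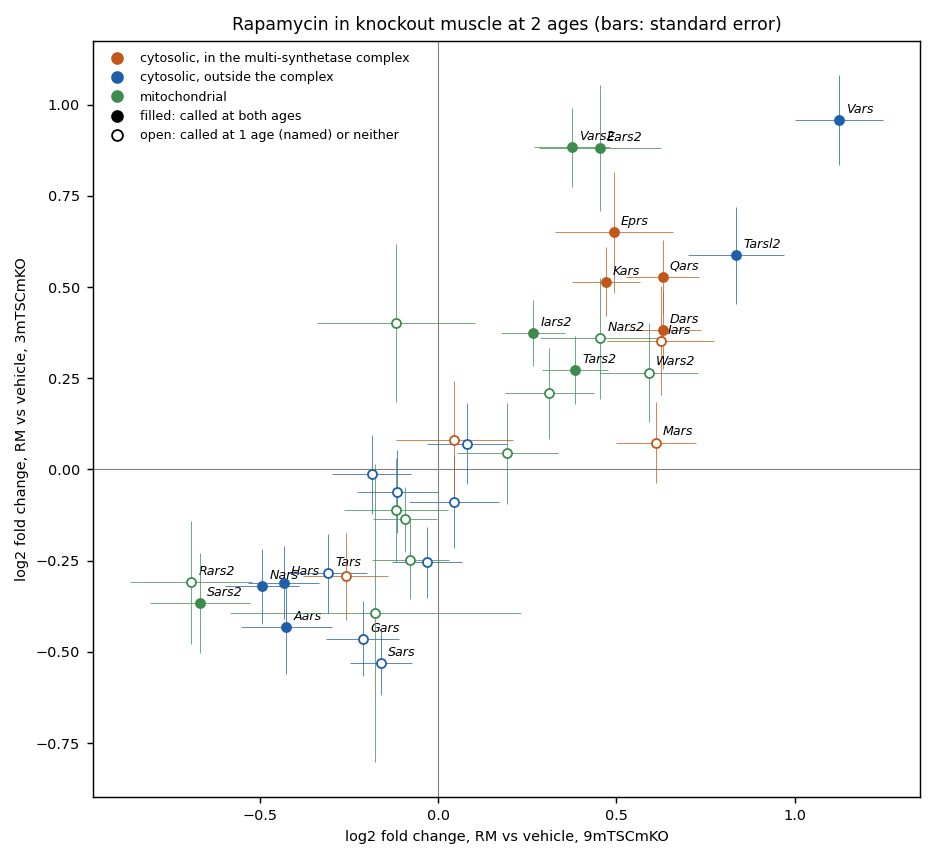
Log2 fold change with rapamycin in 9mTSCmKO (horizontal axis) and in 3mTSCmKO (vertical axis) for 36 synthetase genes, with standard errors as bars; filled points were called at both ages, and colour marks the complex, the other cytosolic genes and the mitochondrial genes. Vars lies at 1.12 and 0.96, and Aars, Hars and Nars lie in the lower left, with Nars at -0.49 and -0.32.

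Rapamycin in control muscle addressed whether such changes were also seen without the deletion. In 9mCON+RM, 5 of 37 genes were higher than in 9mCON and 0 lower, beside 5.03% and 6.82% of all genes. The 5 genes were Vars and 4 members of the complex, Kars, Mars, Qars and Eprs, and all 5 were also called higher in 9mTSCmKO+RM, which is 100% of the 5 and 25.0% of the 20 genes called there. Over all genes tested, 826 were called in the same direction in both, which is 51.5% of the 1604 called in 9mCON+RM and 18.7% of the 4410 called in 9mTSCmKO+RM. All 4 tendon and fibroblast markers were lower in 9mCON+RM, with summed TPM of 9.26 to 41.9 against 49.7 to 361 in 9mCON. Of 4 macrophage markers 3 were lower (median -1.86, summed TPM of 2.72 to 10.8 against 8.04 to 37.0), as was 1 of 3 Schwann cell markers, and the part of these cells in these values was not tested. Vars had 31.3, 34.9, 40.9, 38.7 and 54.3 CPM in 9mCON and 73.97, 79.9, 68.2, 70.7 and 69.8 CPM in 9mCON+RM, without overlap (0.86 ± 0.12, adjusted p = 1.38e-05). Qars had 106, 91.2, 74.2, 81.4 and 84.3 CPM in 9mCON+RM against 53.2 to 72.4 CPM in 9mCON (0.50 ± 0.10, adjusted p = 0.00104), Kars had 196, 150.0, 138, 146 and 153 CPM against 108, 126, 103, 117 and 114 CPM (0.46 ± 0.10, adjusted p = 0.00122), and Mars had 67.5, 71.98, 66.3, 68.3 and 77.3 against 44.2 to 57.5 CPM (0.48 ± 0.11, adjusted p = 0.00391). None of the 3 overlapped. Eprs had 320.1, 544, 385, 365 and 489 CPM in 9mCON+RM and 266, 222, 317, 299.7 and 365 CPM in 9mCON with an overlap, and its call (0.52 ± 0.17, adjusted p = 0.0347) was lost without any of 5 libraries (adjusted p = 0.0515 to 0.143) and with limma on log2(TPM + 1) (adjusted p = 0.16). With the 10 libraries of this comparison fitted alone, 3 of the 37 genes were called, and Eprs (adjusted p = 0.114) and Kars (adjusted p = 0.0566) did not pass. Nars, Aars, Gars, Hars and Sars, which fell in at least 1 of the knockout groups, were not called in 9mCON+RM, with log2 fold changes of 0.22 ± 0.10, 0.13 ± 0.13, 0.25 ± 0.10, -0.15 ± 0.10 and 0.06 ± 0.09. Gars had 95.9, 105, 95.9, 99.97 and 103 CPM in 9mCON+RM, all above the 9mCON libraries. Tarsl2 had 158, 129.7, 126, 151 and 157 CPM in 9mCON+RM, with an overlap, and was not called (0.29 ± 0.13, adjusted p = 0.158).

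In 3mCON+RM, 0 of 37 genes passed the edgeR test against 3mCON, where 0.362% of all genes were called higher and 0.318% lower. At an unadjusted p under 0.05 there were 4 of 37, and DESeq2 called 2 and limma on log2(TPM + 1) 0. Vars came nearest, with 39.2, 38.1, 37.8, 41.9 and 47.6 CPM in 3mCON and 44.4, 63.04, 59.5, 60.3 and 57.8 CPM in 3mCON+RM. Only replicate 1 of the treated libraries of Vars, at 44.4 CPM, overlapped the controls, and the log2 fold change was 0.48 ± 0.12 (adjusted p = 0.0531). Without that library, 1 gene of 37 was called. Kars had 132, 159.7, 143, 142 and 134 CPM in 3mCON+RM, all above the 3mCON libraries, and was not called (0.32 ± 0.10, adjusted p = 0.117). Tarsl2 had 129.7, 171, 158, 156 and 155 CPM there, with an overlap (0.08 ± 0.13, adjusted p = 0.964). The median over the complex was 0.15 and 7 of its 8 members had a positive log2 fold change.

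The difference between genotypes in the response to rapamycin was tested as an interaction. At 9 months Nars differed by -0.71 ± 0.15 on the log2 scale (adjusted p = 0.00306), with 175, 145, 126, 135 and 182 CPM in 9mCON+RM, so that it was called lower with rapamycin in the knockout and was not called in the control. Dars differed by 0.49 ± 0.15 (adjusted p = 0.0486), with 71.8 to 101 CPM in 9mCON+RM against 70.5 to 94.9 in 9mCON. At 3 months Gars differed by -0.54 ± 0.15 (adjusted p = 0.0255), with 83.3, 93.7, 104, 94.2 and 99.6 CPM in 3mCON+RM, and Vars2 by 0.82 ± 0.15 (adjusted p = 0.000956), with 13.8, 14.7, 17.2, 13.9 and 14.3 CPM in 3mCON+RM. For Gars and Vars2 the control libraries with and without rapamycin overlapped widely. The background of these tests was 2.56% higher and 2.31% lower at 9 months and 1.36% and 2.09% at 3 months, against 1 of 37 in each direction at each age. The counts moved with the fit: in place of 2 of 37 at 9 months DESeq2 called 4 and a fit of the groups compared alone called 1, and in place of 2 at 3 months that fit called 5. The Dars call was lost without any of 14 of the 20 libraries of its test (adjusted p = 0.0529 to 0.106) and that of Gars without any of 7 of 20 (adjusted p = 0.0505 to 0.0896), namely 3mCON replicates 1 and 3, 3mCON+RM replicates 3 and 5, 3mTSCmKO replicates 1 and 2 and 3mTSCmKO+RM replicate 2. For Dars the calls that held were those without 9mCON replicate 1, 9mCON+RM replicate 2 or 4, 9mTSCmKO replicate 3 or 9mTSCmKO+RM replicate 1 or 3. The Nars and Vars2 calls held without each library in turn. The interaction of Vars was 0.27 ± 0.17 in the older mice (adjusted p = 0.402) and 0.48 ± 0.17 in the younger ones (adjusted p = 0.137). Neither passed the test, which does not show that both genotypes responded alike.

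Both genotypes were also compared under rapamycin. At 9 months, 2 of 37 were higher and 2 of 37 lower in 9mTSCmKO+RM than in 9mCON+RM, beside 11.3% and 9.33% of all genes. Sars, at 113, 121, 109, 105 and 117 CPM in 9mCON+RM and 147 to 165 CPM in 9mTSCmKO+RM, was higher without overlap (0.46 ± 0.09, adjusted p = 0.000109). Hars, at 36.4, 31.4, 31.5, 32.1 and 32.5 CPM in 9mCON+RM, was higher by 0.35 ± 0.10 (adjusted p = 0.0104). Hars did not pass once 9mTSCmKO+RM replicate 1 was left out (adjusted p = 0.0554). Sars2, at 10.9, 8.02, 10.7, 10.4 and 8.03 CPM in 9mCON+RM, was lower (-0.55 ± 0.14, adjusted p = 0.00369), so that the serine enzymes of both compartments were called in opposite directions. Farsb, a subunit of the phenylalanine enzyme, was lower (-0.36 ± 0.13, adjusted p = 0.0383), a call lost without any of 8 of the 10 libraries (adjusted p = 0.0503 to 0.171), with insert size as a term (adjusted p = 0.0912), with the 10 libraries fitted alone (adjusted p = 0.099) and with limma on log2(TPM + 1) (adjusted p = 0.126). As above, the fit with insert size lacked 9mTSCmKO+RM replicate 5. At 3 months, 2 of 37 were higher and 0 of 37 lower in 3mTSCmKO+RM than in 3mCON+RM, beside 5.67% and 4.36% of all genes. They were Sars (71.6, 85.6, 78.2, 85.2 and 91.2 CPM in 3mCON+RM, 0.36 ± 0.09, adjusted p = 0.00491) and Vars (0.62 ± 0.12, adjusted p = 0.000534), neither with an overlap. With the 10 libraries of this comparison fitted alone 5 of the 37 were called, namely Sars, Vars, Hars and Vars2 as higher and Farsb as lower. Sars was thus higher in the knockout in all 4 genotype comparisons. Beside these, 2 of 3 slow fibre and 1 of 4 macrophage markers were higher and 2 of 6 fast fibre and 1 of 3 endothelial markers lower in the knockout at 9 months, 0 markers were called at 3 months, and their part was not tested.

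Age was compared within each genotype without rapamycin, where age and library preparation cannot be told apart. In CON, 0 of 37 genes passed the edgeR test between 9 and 3 months, beside 0.679% of all genes called higher and 0.34% lower. There were 5 of 37 at an unadjusted p under 0.05, and 0 by DESeq2 and 0 by limma. In TSCmKO, 4 of 37 were higher and 2 of 37 lower at 9 months, beside 19.1% and 18.3% of all genes. Nars (0.49 ± 0.10, adjusted p = 0.000315), Hars (0.47 ± 0.10, adjusted p = 0.000346), Kars (0.27 ± 0.10, adjusted p = 0.0219) and Ears2 (0.53 ± 0.17, adjusted p = 0.0157) were higher, and Mars (-0.50 ± 0.11, adjusted p = 0.000637) and Tarsl2 (-0.45 ± 0.13, adjusted p = 0.00754) lower. With insert size as a term, in a fit without 9mTSCmKO+RM replicate 5, whose label gives none, 3 of the 37 genes were called in place of 6, and Tarsl2 (adjusted p = 0.132), Kars (adjusted p = 0.068) and Ears2 (adjusted p = 0.749) were not among them. Upper-quartile scaling called 10. Kars was not called without the CPM filter either (adjusted p = 0.0809), and with the 10 libraries fitted alone Kars (adjusted p = 0.0948) and Ears2 (adjusted p = 0.119) were not. The 4 tendon and fibroblast markers were lower at 9 months in TSCmKO as well, with summed TPM of 14.7 to 89.3 against 110 to 332 at 3 months. So were 3 of 3 adipocyte markers (median -2.61), 3 of 4 erythroid markers (median -2.13), 2 of 3 endothelial and 2 of 6 fast fibre markers, whereas 1 of 3 slow fibre and 1 of 3 Schwann cell markers were higher and of 4 macrophage markers 1 was higher and 1 lower. The part of these cells was not tested. The Ears2 call was also lost without 9mTSCmKO replicate 1 (adjusted p = 0.125) or 9mTSCmKO replicate 3 (adjusted p = 0.0596), and that of Tarsl2 without 9mTSCmKO replicate 1 (adjusted p = 0.0519).

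There were 12 genes that were called in none of the 13 tests, among them Cars, Farsa, Rars, Wars and Yars in the cytosol and Aars2, Cars2, Hars2, Lars2, Pars2 and Yars2 in mitochondria. Wars, the tryptophan enzyme, had the narrowest range of log2 values of these cytosolic genes, with 35.1, 27.3, 37.03, 36.1 and 43.8 CPM in 9mCON, 38.8, 39.9, 40.2, 41.2 and 37.4 CPM in 9mCON+RM, 23.6, 38.7, 38.2, 36.8 and 35.04 CPM in 9mTSCmKO and then 38.8, 36.3, 38.7, 32.5 and 35.9 CPM in 9mTSCmKO+RM. At 3 months Wars had 39.3, 35.7, 31.1, 41.1 and 40.97 CPM in 3mCON, 37.4, 44.6, 43.6, 39.05 and 40.99 CPM in 3mCON+RM, 36.7, 45.4, 37.2, 34.6 and 36.6 CPM in 3mTSCmKO and then 37.7, 46.5, 37.2, 38.3 and 40.03 CPM in 3mTSCmKO+RM. Its log2 values in all tests lay between -0.14 and 0.14. Yars, the tyrosine enzyme, which holds the element in its promoter, had a log2 fold change of -0.02 ± 0.10 at 9 months and 0.20 ± 0.10 at 3 months in the knockout (adjusted p = 0.919 and 0.145). Of the 5 genes with the element, Aars, Gars and Tars rose in the knockout at both ages, Iars fell at 9 months, and Yars was not called. Sars, which rose at both ages, had a promoter in the table without these letters, and the promoters of Nars and Hars were not analysed here. The precision for Lars2 was low, with log2 fold changes of -0.08 ± 0.41 at 9 months and 0.26 ± 0.41 at 3 months in the knockout.

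Genes around the synthetases were counted from lists of 3 to 5 genes. Of all genes, 19.1% were called higher and 18.9% lower in 9mTSCmKO, and 11.4% and 8.32% in 3mTSCmKO. With rapamycin the shares were 15.8% and 16.8% in 9mTSCmKO, 10.6% and 13% in 3mTSCmKO, and 5.03% and 6.82% in 9mCON. They were 0.362% and 0.318% in 3mCON, and between genotypes under rapamycin 11.3% and 9.33% at 9 months and 5.67% and 4.36% at 3 months. Of the complex scaffolds, Aimp2 rose with rapamycin in 9mTSCmKO (0.67 ± 0.16) and was higher in the knockout under rapamycin at 9 months (0.75 ± 0.16) and 3 months (0.85 ± 0.16), whereas Aimp1 and Eef1e1 were called in none of the 8 comparisons between genotypes or treatments. Trnt1, which adds the CCA end to tRNAs, was higher in 9mTSCmKO (0.48 ± 0.12) and lower with rapamycin at 9 months (-0.32 ± 0.12) and 3 months (-0.36 ± 0.12). Xpot, the tRNA exporter, was higher in the knockout at both ages (0.43 ± 0.15 and 0.56 ± 0.15) and lower with rapamycin in 3mTSCmKO (-0.50 ± 0.15). Eef1a2, the muscle form of the factor that brings charged tRNAs to the ribosome, was higher with rapamycin in 9mTSCmKO (0.50 ± 0.12), 3mTSCmKO (0.33 ± 0.12) and 9mCON (0.49 ± 0.12). Eef1a1, the form made in most tissues, was higher with rapamycin in 3mTSCmKO (0.59 ± 0.13) and 3mCON (0.62 ± 0.13) and was not called in 9mTSCmKO (-0.0025 ± 0.13) or 9mCON (0.06 ± 0.13). Of 4 genes that make mitochondrial glutamine and initiator methionine tRNA, Gatc was lower in 9mTSCmKO (-0.42 ± 0.14) and the others were not called in that comparison, and Gatb was higher with rapamycin in 9mTSCmKO (0.31 ± 0.12). Of 4 editing and deacylation genes, Dtd1 was lower in 9mTSCmKO (-0.60 ± 0.13) and higher with rapamycin there (0.46 ± 0.13). In the same list 1 gene was higher with rapamycin in 3mTSCmKO, and 1 was higher at 9 than at 3 months in each genotype. Of 3 genes for selenocysteine charging, Sepsecs was higher in 3mTSCmKO (0.40 ± 0.11) and lower with rapamycin at 9 and 3 months (-0.34 ± 0.12 and -0.54 ± 0.11), and Eefsec was lower in 9mTSCmKO (-0.43 ± 0.17). In the rapamycin by genotype interaction, 1 of 3 scaffold genes was called higher at 9 months and 1 of 3 selenocysteine genes lower at 3 months. With age in TSCmKO, 1 selenocysteine gene was lower, and of 5 genes for tRNA ends, export and delivery 1 was higher and 1 lower.

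The ATF4 list held 25 genes, of which 23 were tested. The filter of 1 CPM in 5 of 40 libraries can be passed through 1 group of 5 alone. For a gene kept in that way, a high value in that group follows from the filter. Such a gene still enters the counts and medians below. In 9mTSCmKO 15 were higher and 2 lower, with a median log2 fold change of 1.08, beside 19.1% and 18.9% of all genes. In 3mTSCmKO 12 were higher and 1 lower, with a median of 0.58, beside 11.4% and 8.32%. With rapamycin 2 were higher and 14 lower in 9mTSCmKO (median -0.68), where 15.8% and 16.8% of all genes were called. In 3mTSCmKO 1 was higher and 12 lower with rapamycin (median -0.71), beside 10.6% and 13%. Asns, whose promoter stretch is shown above, was higher in 9mTSCmKO (2.15 ± 0.28 on the log2 scale) and lower with rapamycin there (-2.43 ± 0.29). Atf4 itself was not called in 9mTSCmKO (0.26 ± 0.14). Chac1, which holds the element too, was lower in 9mTSCmKO (-1.12 ± 0.34), and Pycr1 was lower in the knockout (-0.53 ± 0.19 at 9 months) and higher with rapamycin (0.98 ± 0.18). In control muscle with rapamycin 0 were higher and 2 lower at 9 months, beside 5.03% and 6.82% of all genes, and 0 higher and 1 lower at 3 months, beside 0.362% and 0.318%. Between genotypes under rapamycin, 9 were higher and 1 lower in the knockout at 9 months (median 0.45), beside 11.3% and 9.33% of all genes. At 3 months 5 were higher and 0 lower (median 0.084), beside 5.67% and 4.36%.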

How the data were processed

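RNA of whole EDL muscle from 40 mice was selected with oligo(dT) beads and sequenced as stranded single-end reads. The authors trimmed reads with Cutadapt 1.9.1 and deposited estimated counts per gene from kallisto 0.43.1 run on protein-coding Ensembl transcripts of GRCm38, with reads that hit several transcripts shared between them. TPM values per gene were deposited by the authors beside the counts. Total counts ran from 8883870 to 35224669 per library, which limits the precision of low genes such as Pars2.

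Counts were rounded to whole numbers, genes at 1 CPM or more in 5 or more libraries were kept, and 13543 genes were scaled by TMM and fitted in 1 quasi-likelihood model over all 8 groups (R 4.3.3, edgeR 4.0.16). From it 10 contrasts between 2 groups and 3 interactions were tested, each adjusted over all genes at 0.05. The SE given with a log2 value is its absolute value divided by the square root of the F statistic of that test. Alternatives used DESeq2 1.42.0, limma 3.58.1 on log2(TPM + 1), other scalings and filters, insert size, a replicate block and single libraries left out. Every fit with insert size left out 9mTSCmKO+RM replicate 5, whose label gives no insert size. CPM values are scaled by the same factors. Levels between genes were compared in TPM.

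The synthetase genes, the other lists and the motifs were chosen with earlier results of these data known. Values in every library are given for up to 8 cytosolic and 5 mitochondrial called genes with the largest log2 fold change in the genotype and knockout rapamycin comparisons, and for Gars, Kars, Tarsl2 and Wars. Replicates of 1 group had correlations of 0.934 to 0.992, and no libraries were counted as duplicates. The values of 1 mitochondrial gene, which enters the counts and medians, and 1 promoter stretch are not reported here.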

Additional observations from a re-analysis of the deposited data

Results flagged for a closer look

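In 25 of 296 combinations of a synthetase gene and a group, 1 library stood apart from the other 4 by Dixon's test, and chance alone flags about 1 in 20 groups (5%). Replicate 1 of 9mCON+RM stood apart for 4 genes, with high values of Hars (36.4 CPM), Kars (196 CPM), Fars2 (30.3 CPM) and Lars2 (3266 CPM). Replicate 3 of 3mCON was low for Eprs (238 CPM), Kars (104.6 CPM) and Sars (78.7 CPM). Replicate 3 of 3mTSCmKO+RM was low for Farsa (14.3 CPM) and high for Nars (144.9 CPM) and Rars (47.3 CPM).

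Of the remaining libraries, replicate 2 of 3mCON was high for Tarsl2 (172 CPM) and Cars2 (15.5 CPM), and replicate 2 of 9mCON was high for Fars2 (33.6 CPM) and Rars2 (29.4 CPM). Replicate 1 of 3mCON+RM was low for Vars (44.4 CPM) and high for Lars2 (2264 CPM), and replicate 3 of that group was high for Vars2 (17.2 CPM). In 9mTSCmKO, replicate 1 was low for Wars (23.6 CPM) and Nars2 (2.81 CPM), replicate 2 was high for Lars2 (2735 CPM), and replicate 3 was high for Nars (267 CPM). Replicate 2 of 3mTSCmKO was high for Wars (45.4 CPM). Rapamycin-treated knockout libraries gave 3 more, a low Farsb (51.1 CPM) in 3mTSCmKO+RM replicate 2, a high Wars2 (9.36 CPM) in 3mTSCmKO+RM replicate 1 and a high Rars2 (19.1 CPM) in 9mTSCmKO+RM replicate 1.

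By an interaction term, 5 effects differed between groups. The genotype effect on Nars was larger at 9 than at 3 months by 0.52 on the log2 scale. The rapamycin effect differed between knockout and control by 0.49 for Dars and -0.71 for Nars at 9 months, and by -0.54 for Gars and 0.82 for Vars2 at 3 months.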

How the results depend on the processing

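In the 10 comparisons between groups, no called synthetase gene changed direction under any alternative. For the 5 interactions called, direction was followed only with single libraries left out, where it held. Of 370 gene values in the 10 comparisons between groups, the call was lost in 22 and gained in 13 when only the groups compared were fitted, lost in 15 and gained in 9 with limma, lost in 6 and gained in 2 with insert size as a term, lost in 5 without the CPM filter, lost in 2 and gained in 12 with upper-quartile scaling, and gained in 9 with DESeq2. The causes were not tested.

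Counts of called genes moved as follows. Fitting only the groups compared gave 6 for genotype at 9 months, 5 for genotype at 3 months under rapamycin, 13 for rapamycin in 9mTSCmKO, 3 for rapamycin in 9mCON, 2 for rapamycin in 3mCON, 0 for genotype by age, 1 for rapamycin by genotype at 9 months and 5 at 3 months. Upper-quartile scaling gave 1 for rapamycin in 3mCON and 10 for age in TSCmKO, and insert size gave 3 for age in TSCmKO and 1 for rapamycin by genotype at 9 months. DESeq2 gave 2 for rapamycin in 3mCON and 4 for rapamycin by genotype at 9 months. Without the CPM filter there were 0 for genotype by age and 1 for rapamycin by genotype at each age, and limma gave 2 for genotype by age. Leaving out 1 library gave 0 to 1 for rapamycin in 3mCON (1 without 3mCON+RM replicate 1), 0 to 1 for age in CON (1 without 9mCON replicate 5), 0 to 2 for genotype by age, 1 to 3 for rapamycin by genotype at 9 months and 1 to 2 at 3 months. For the other comparisons it gave 13 to 16 for genotype at 9 months, 6 to 9 at 3 months, 16 to 20 for rapamycin in 9mTSCmKO and 13 to 20 in 3mTSCmKO.

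The deviations of same-numbered libraries correlated between -0.363 and 0.412, and 28 of 140 pairs were over 0.1. Libraries with different numbers were not compared in this way, so whether replicate numbers pair the samples was not settled. With the replicate number as a block, 16 genes were called for genotype at 9 months, 10 at 3 months, 20 for rapamycin in 9mTSCmKO, 15 in 3mTSCmKO and 1 in 3mCON. Upper-quartile scaling moved the share of higher calls over all genes for rapamycin in 3mTSCmKO from 44.9% to 55.7%. Counting Tarsl2 with the mitochondrial genes gave 6 mitochondrial calls for genotype at 9 months, 2 at 3 months and 2 for age in TSCmKO. It gave 7 higher in place of 6 with rapamycin in 9mTSCmKO, where the mitochondrial median went from 0.07 to 0.19, and 5 higher in place of 4 in 3mTSCmKO.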
